A study of Arabidopsis thaliana with 4 samples.

Results

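The subject here is a set of 44 Arabidopsis thaliana genes of the phosphate starvation response. They were picked by locus identifier for their known roles, with earlier results of these data known. Each of the 44 has a row among the 32548 genes of the deposited table. RNA was sequenced from seedlings 2 weeks old, in 2 libraries of the uba2c mutant, labelled uba2c(-/-), and in 2 libraries of the wild type, Col-0. Both genotypes grew on plates of Murashige and Skoog medium under a long-day regime, with 16 h of light at 23 °C and 8 h of darkness at 22 °C, and no library was labelled as starved of phosphate. UBA2C encodes an RNA-binding protein. The labels name neither the mutant allele and its lesion nor the number of plants behind a library. They do not say that replicates were separate cultures either, and p-values therefore reflect only the spread among these libraries, which may be technical.

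Plants take up phosphorus as inorganic phosphate, and when it runs short they turn on genes that raise uptake, release phosphate from organic molecules and replace membrane phospholipids. In Arabidopsis the MYB-type factor PHR1 and its relative PHL1 bind a short DNA element called P1BS and switch many of these genes on. SPX proteins bind PHR factors when phosphate is ample and keep them off DNA. The microRNAs miR399 and miR827 act next to this switch by lowering PHO2 and NLA, which send phosphate transporters to degradation, and the noncoding RNAs IPS1 and AT4 sequester miR399.

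The 4 libraries held between 19720586 and 19847651 reads, as recovered from the deposited values on the inference that these are read counts adjusted by the quantile method of edgeR. UBA2C itself had values of 209 and 234 in uba2c, against 799 and 771 in wild type (log2 fold change -1.83, limma adjusted p = 2.64e-06). Its annotation overlaps that of AT3G15020 on the same strand, so reads in the overlap may have been assigned to either gene or dropped. Values throughout are the deposited ones, which behave as read counts scaled to 1 library size, and each fold change is uba2c over wild type on the log2(value + 0.5) scale. Of 19 root markers 11 were lower in uba2c, 4 were higher and none was at 0, with a median log2 fold change of -0.80. Their summed values were 45412 and 45600 in uba2c and 41644 and 42601 in wild type. Without the abundant PYK10 they were 9402 and 10197 in uba2c and 8917 and 9446 in wild type. TIP2;2, 1 of the 4 higher markers, was the largest term of that sum, with 5646 and 6245 in uba2c and 3640 and 3621 in wild type. TIP2;3, also higher, had 1310 and 1453 in uba2c and 506 and 480 in wild type. The sums therefore do not reflect the 11 lower markers, which were less abundant. The 7 root hair markers among them were all lower, summing to 804 and 856 in uba2c, against 2671 and 3031 in wild type. Of 9 shoot markers 2 were higher and 4 lower, none was at 0, and they summed to 540765 and 591273 in uba2c and to 552760 and 553200 in wild type. Many phosphate genes are expressed in roots and root hairs. The part of these marker differences in the results below was not tested, and in whole seedlings fewer cells of a type and less RNA per cell cannot be told apart.

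Of the 44 genes, 42 had enough signal to be tested, and 32 of these differed between the genotypes (76.2%), where 34.8% of all 22439 genes tested did. Because the genes were chosen with earlier results of these data known, their shares describe this list and are not an independent test of the pathway. A gene counts as different at a limma p-value below 0.05 after Benjamini-Hochberg adjustment over all genes tested. There were 20 genes lower in uba2c (47.6%, against 17.4% of all genes tested) and 12 higher (28.6%, against 17.4%), and 10 did not pass. The median log2 fold change was -0.17 over the 42 genes and -0.00 over all genes tested. Most differences were moderate: 4 genes, ALMT1, RNS1, PHT1;5 and PEPC1, were at least 2-fold lower (3.83% of all genes tested were), and only PHT1;2 was at least 2-fold higher (2.29%). In 23 of the 44 genes both uba2c values lay below both wild type values, in 14 they lay above, and in 7 neither held. These 7 include PHT1;3 and NPC5, which were not tested, and NPC5 had no read. Among all genes tested 34.5% lay below and 33.6% above in this way. Lower and higher genes were found side by side within the regulators, the transporters, the lipid enzymes and the phosphatases.

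With edgeR on recovered reads 21 of these genes were lower (22.9% of all genes tested) and 14 higher (22.6%). DESeq2 on the same reads gave 16 lower (11.4% of all genes tested) and 8 higher (11.9%). limma without the filter on low values gave 17 lower (12.8%) and 10 higher (13%). Without uba2c 1, or without uba2c 2, limma called no gene at all at this threshold, with 7513 and 7412 genes at an unadjusted p under 0.05, 26 and 24 of them phosphate genes. Every limma call below is therefore lost without either uba2c library, for these genes at adjusted p values of 0.0828 to 0.419. edgeR then called 15 lower (14.1% of all genes tested) and 8 higher (14.5%) phosphate genes without uba2c 1, and 19 lower (15.8%) and 11 higher (16%) without uba2c 2. limma called 18 lower (13.9%) and 10 higher (15%) without wild type 1, and 17 lower (14.3%) and 10 higher (15.2%) without wild type 2. Over the 14 alternatives other than the limma fits that leave out a library, 15 of the lower and 7 of the higher calls were kept throughout. The matching count over all genes is not given, so nothing particular to the phosphate genes follows from these numbers.

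**Figure D1:**
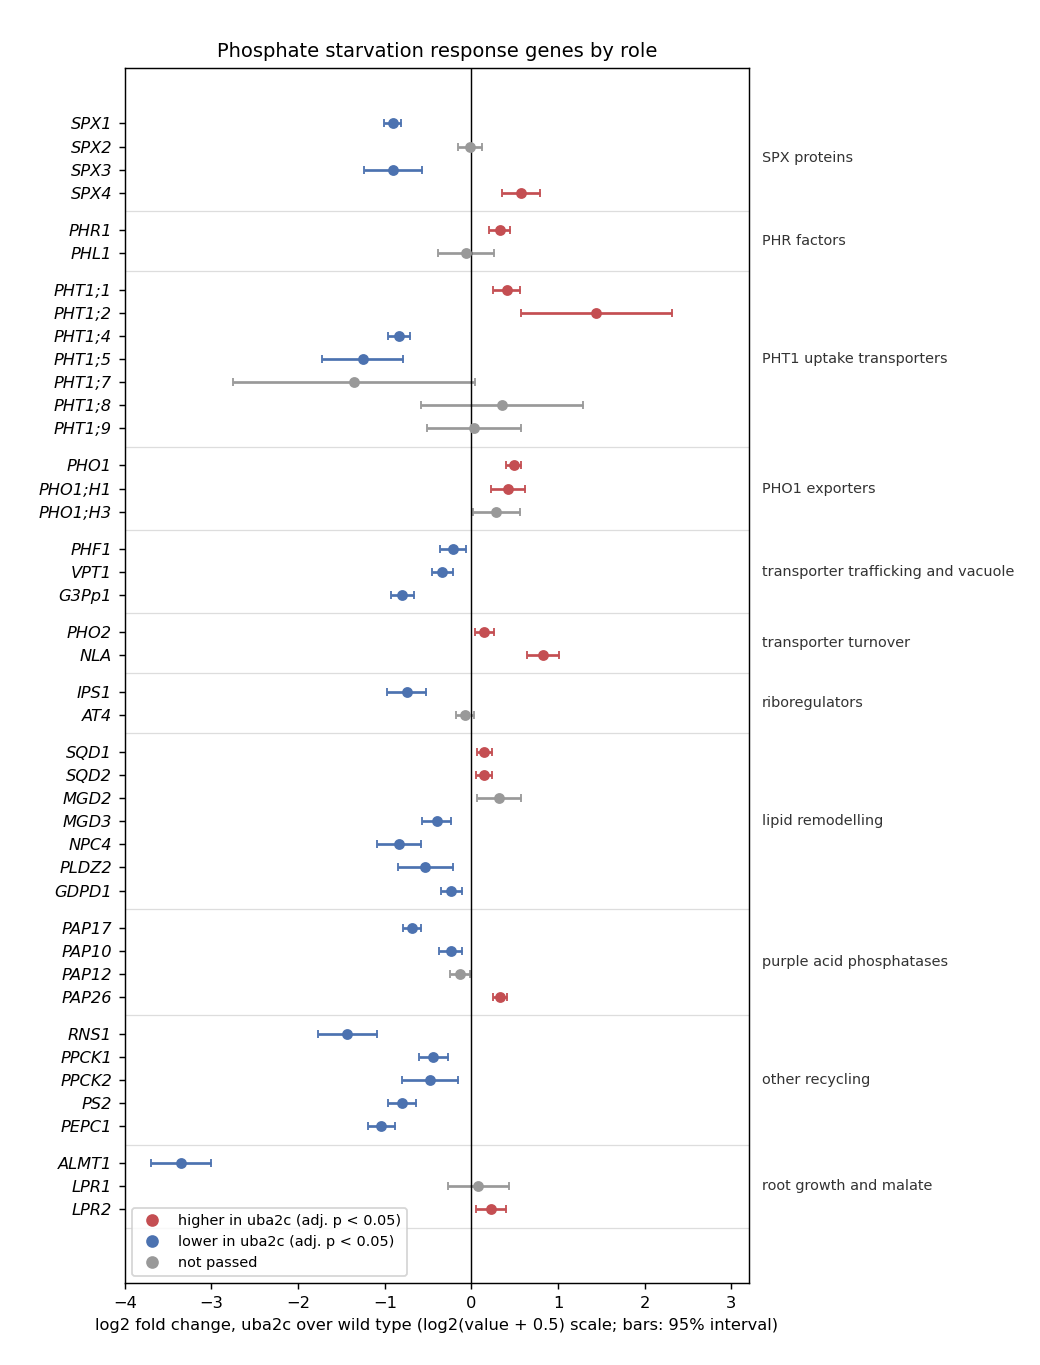
Log2 fold change, uba2c over wild type, of the 42 phosphate genes tested, grouped by role, with bars for the 95% interval and colour for the call. ALMT1 lies farthest to the left at -3.35 and PHT1;2 farthest to the right at 1.44, and the SPX, PHT1, lipid and purple acid phosphatase groups each hold genes on both sides of 0.

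The SPX genes, which encode the phosphate-dependent inhibitors of PHR factors, did not move together. SPX1 (AT5G20150, TAIR10.1 chr5:6802282-6803655, plus strand) had values of 863 and 870 in uba2c, against 1618 and 1631 in wild type. That is 53.3% of the wild type mean (log2 fold change -0.91 with SE 0.04, limma adjusted p = 4.41e-06). The libraries of each genotype nearly coincide. SPX3 (AT2G45130), like SPX1 a transcript that phosphate starvation is known to raise strongly, had 87.3 and 114 in uba2c, against 192 and 182 in wild type (log2 fold change -0.90, SE 0.15, limma adjusted p = 0.00225). SPX4 (AT5G15330), whose protein is a further inhibitor of PHR1 (AT4G28610), had 205 and 215 in uba2c and 142 and 140 in wild type, and was higher (0.57, SE 0.10, limma adjusted p = 0.00294). SPX2 (AT2G26660) had 465 and 489 in uba2c and 484 and 482 in wild type, so its libraries overlap (-0.02, 95% interval -0.16 to 0.12). Per exon length, SPX3 reached 5.70 ± 0.98 reads per kilobase and per 1e6 library reads (RPKM, SD, n = 2) in uba2c, below SPX4 at 7.97 ± 0.17. In wild type SPX3 was above SPX4, at 10.7 ± 0.39 against 5.40 ± 0.08 RPKM.

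Of the PHR factors, PHR1, the main activator of the response, was higher in uba2c. Its values were 1395 and 1384 in uba2c, against 1060 and 1163 in wild type (log2 fold change 0.32, SE 0.05, limma adjusted p = 0.00264). PHL1 (AT5G29000), which acts redundantly with PHR1, had 289 and 212 in uba2c and 252 and 265 in wild type. The wild type values lie between the uba2c values, and the difference did not pass (-0.06, 95% interval -0.38 to 0.26).

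**Figure D2:**
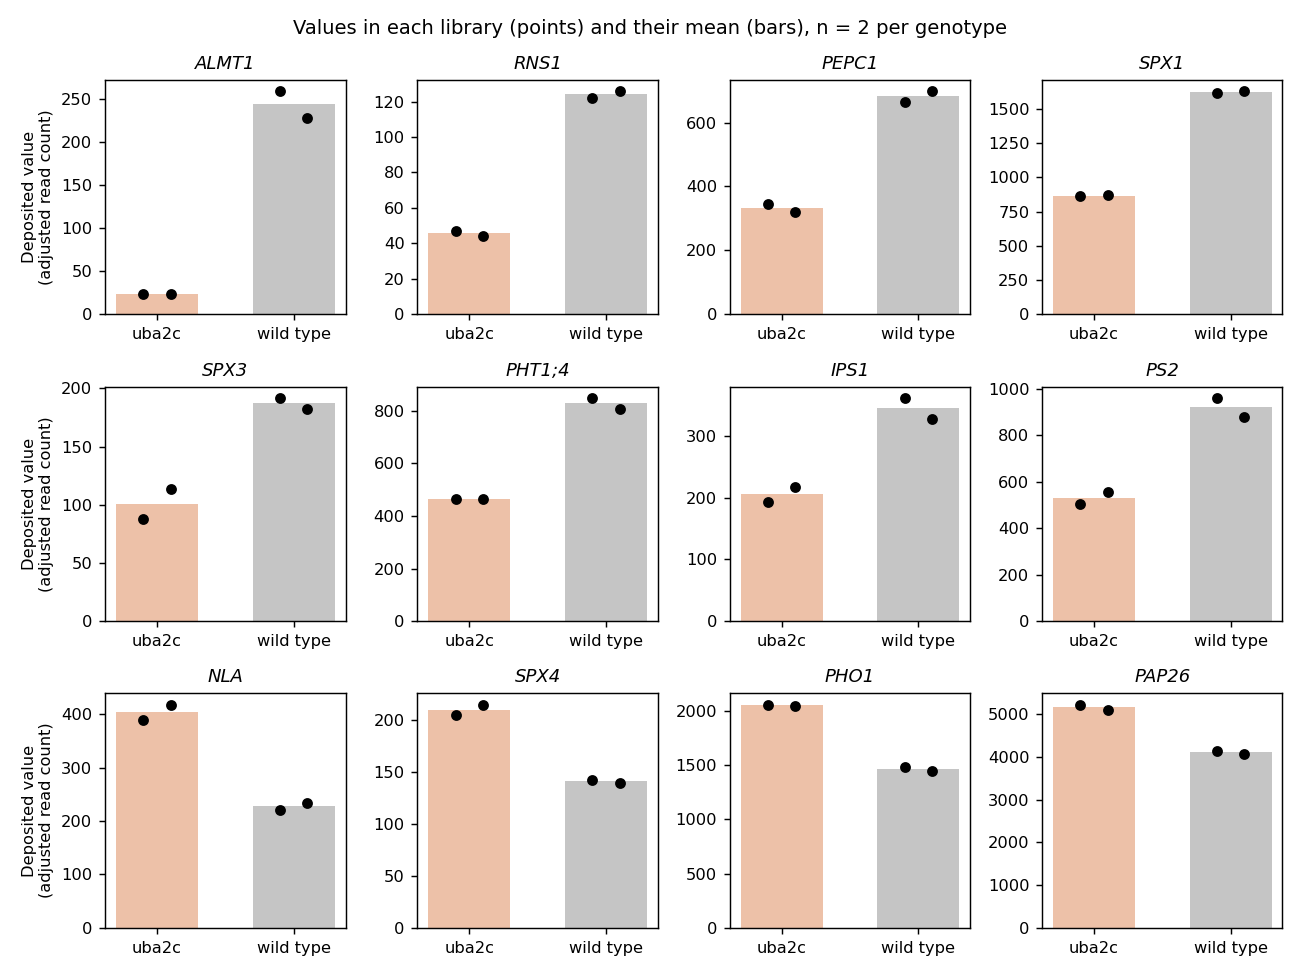
Deposited values (adjusted read counts, each axis from 0) of 12 phosphate genes in the 2 uba2c and 2 wild type libraries, with points for libraries and bars for means. The points of SPX1 lie at 863 and 870 in uba2c and at 1618 and 1631 in wild type, so the genotypes stand apart by far more than the replicates.

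The sequences that link miR399 and miR827 to PHO2 (AT2G33770), NLA (AT1G02860), IPS1 (AT3G09922) and AT4 are given before the levels of these 4 genes, to show which transcripts share a miRNA. Each of the 6 MIR399 loci yields a mature miRNA with the same seed, bases 2 to 8, and miR827 has another. MIR399C is also annotated with miR399c-5p, whose seed differs. The mature sequences of 2 miR399 forms and of miR827 are shown with the seed in capitals (TAIR10.1, chr1:10227165-10227185 plus, chr1:23345387-23345407 minus and chr3:22122811-22122831 minus).
miR399a: uGCCAAAGgagauuugcccug
miR399b: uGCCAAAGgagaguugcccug
miR827: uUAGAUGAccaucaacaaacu
The PHO2 transcript holds 5 sites for miR399 in its 5′ UTR, each with 19 of 21 bases paired, of which one is shown (chr2:14282106-14282126, minus strand). NLA holds a miR827 site in its 5′ UTR with 20 bases paired (chr1:635401-635421, plus strand). IPS1 (chr3:3051224-3051247, plus) and AT4 (chr5:895149-895172, plus) carry a miR399 site within the annotated reading frame, with 18 paired bases and an unpaired insert of 3 bases. Capitals mark bases that pair with the miRNA.
PHO2 site: tAGGGCAAATCTtCTTTGGCA
NLA site: tGTTTGTTGATGGTCATCTAA
IPS1 site: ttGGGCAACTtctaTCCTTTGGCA
AT4 site: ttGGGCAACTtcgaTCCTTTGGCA

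NLA, a RING-type ubiquitin ligase that targets PHT1 transporters, was higher in uba2c, with values of 389 and 418, against 221 and 235 in wild type. This is 177% of the wild type mean (log2 fold change 0.82, SE 0.08, limma adjusted p = 0.00017). PHO2, the ubiquitin-conjugating enzyme UBC24, was slightly higher, with 2149 and 2221 in uba2c and 1900 and 2041 in wild type (0.15, SE 0.05, limma adjusted p = 0.0392). PHO2 no longer passed with DESeq2 (adjusted p = 0.0884), nor with edgeR without uba2c 1 (0.0626), without uba2c 2 (0.110) or without wild type 1 (0.20). With limma it did not pass with low values kept (adjusted p = 0.0791) or without wild type 1 (0.237). Of the riboregulators, IPS1 fell to 192 and 218 in uba2c, against 362 and 327 in wild type (-0.75, SE 0.10, limma adjusted p = 0.000762). AT4 (AT5G03545), with the same site structure, had 1276 and 1284 in uba2c and 1329 and 1367 in wild type, a difference that did not pass (-0.07, 95% interval -0.17 to 0.02). Per exon length AT4 was the more abundant of the pair in both genotypes, at 71.0 ± 0.57 RPKM in uba2c and 75.4 ± 1.45 in wild type, where IPS1 had 19.6 ± 1.47 in uba2c and 33.3 ± 2.32 in wild type (SD, n = 2 each). No library held more than 6 reads of a MIR399 locus or MIR827, and MIR399A, MIR399B and MIR399F had none. Mature miRNAs of 21 bases are shorter than the 50-base reads, so the miRNAs themselves were not measured.

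The PHT1 genes encode the plasma membrane symporters that take up phosphate, and the abundant members moved in opposite directions. PHT1;4 (AT2G38940) fell to 465 and 463 in uba2c, against 850 and 807 in wild type (log2 fold change -0.84, SE 0.06, limma adjusted p = 2.6e-05). PHT1;1 (AT5G43350) had 802 and 897 in uba2c, against 617 and 665 in wild type, and was higher (0.40, SE 0.07, limma adjusted p = 0.00312). Per exon length, PHT1;1 was above PHT1;4 in uba2c, at 21.9 ± 1.44 and 12.04 ± 0.18 RPKM, and below it in wild type, at 16.7 ± 0.87 and 21.7 ± 0.79 RPKM (SD, n = 2). Of the 50-base stretches of PHT1;1 exons 42.5% also occur elsewhere in the genome, as do 45.6% of those of PHT1;2 (AT5G43370), so reads of these genes may have been split or dropped and their values are uncertain.

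PHT1;5 (AT2G32830), known for moving phosphate between shoot and root, had 24.99 and 27.5 in uba2c, against 59.0 and 67.9 in wild type, 41.3% of the wild type mean (log2 fold change -1.26, SE 0.20, limma adjusted p = 0.00224). PHT1;2 was low throughout, with 18.3 and 14.7 in uba2c and 6.80 and 4.83 in wild type (1.44, SE 0.38, limma adjusted p = 0.0203). PHT1;2 failed the threshold with DESeq2 (adjusted p = 0.159), with edgeR without uba2c 1 (0.0742) or wild type 2 (0.0949) and with limma without wild type 2 (0.0630). PHT1;8 (AT1G20860) and PHT1;9 (AT1G76430) overlapped between genotypes, with intervals of -0.58 to 1.28 and -0.52 to 0.57. PHT1;7 (AT3G54700) had 1 and 2 reads in uba2c and 4 and 5 in wild type, and did not pass. PHT1;3 (AT5G43360) had 2 reads in wild type 2 and none elsewhere, and it was not tested; 3 reads, the limit that a count of 0 allows, correspond to 0.151 to 0.152 reads per 1e6 here.

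Phosphate export and storage genes also split. PHO1 (AT3G23430), which loads phosphate into the xylem, rose to 2059 and 2046 in uba2c, against 1484 and 1449 in wild type (log2 fold change 0.49, SE 0.04, limma adjusted p = 7e-05). PHO1;H1 (AT1G68740), which acts in the same step, had 343 and 315 in uba2c and 254 and 235 in wild type (0.43, limma adjusted p = 0.00634). PHO1;H3 (AT1G14040) had 314 and 247 in uba2c and 228 and 229 in wild type and did not pass (0.29, limma adjusted p = 0.0946), though it did with edgeR (adjusted p = 0.0168).

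The 3 other transport genes were lower, where 17.4% of all genes tested were. VPT1 (AT1G63010), which moves phosphate into the vacuole, had 992 and 995 in uba2c, against 1198 and 1311 in wild type (log2 fold change -0.34, limma adjusted p = 0.00232). G3Pp1 (AT3G47420), a glycerol-3-phosphate permease relative, fell to 643 and 670 in uba2c, against 1098 and 1190 in wild type (-0.80, SE 0.06, limma adjusted p = 3.61e-05). PHF1 (AT3G52190), which lets PHT1 proteins leave the endoplasmic reticulum, had 373 and 358 in uba2c and 418 and 429 in wild type (-0.21, limma adjusted p = 0.0401). PHF1 missed the threshold with DESeq2 (adjusted p = 0.265) and with edgeR without any 1 of the 4 libraries, at 0.0777 without uba2c 1, 0.148 without uba2c 2, 0.0647 without wild type 1 and 0.129 without wild type 2. With limma PHF1 also missed it with low values kept (adjusted p = 0.0511), without wild type 1 (0.0856) and without wild type 2 (0.158).

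Among enzymes that replace phospholipids with sulfolipid and galactolipid, 4 of 7 tested were lower, 2 higher and 1 did not pass. Of all genes tested, 17.4% were lower and 17.4% higher. NPC4 (AT3G03530), a phospholipase C, fell to 124 and 146 in uba2c, against 245 and 236 in wild type (log2 fold change -0.84, SE 0.11, limma adjusted p = 0.000913). The galactolipid synthase gene MGD3 (AT2G11810) had 289 and 274 in uba2c, against 371 and 371 in wild type (-0.40, limma adjusted p = 0.00397). PLDZ2 (AT3G05630), a phospholipase D, had 163 and 197 in uba2c and 231 and 292 in wild type (-0.53, limma adjusted p = 0.0195). PLDZ2 did not pass with edgeR without uba2c 1 (adjusted p = 0.113), nor with limma with low values kept (0.0678) or without wild type 2 (0.0653). GDPD1 (AT3G02040), which splits glycerophosphodiesters, had 738 and 747 in uba2c and 841 and 903 in wild type (-0.23, limma adjusted p = 0.0134). SQD1 (AT4G33030) and SQD2 (AT5G01220), which make sulfolipid, were slightly higher in uba2c (0.15 and 0.14, limma adjusted p = 0.0167 and 0.0251). MGD2 (AT5G20410) did not pass with limma (0.31, adjusted p = 0.0589) and did with edgeR (adjusted p = 0.0138). GDPD1 missed the threshold with DESeq2 (adjusted p = 0.0649) and with edgeR without uba2c 1 (0.0598) or wild type 2 (0.0538), and with limma without wild type 2 (0.0785). SQD1 missed it with edgeR without uba2c 1 (0.0620) or wild type 2 (0.0711), and SQD2 with DESeq2 (0.0672) and with edgeR without uba2c 2 (0.0794) or wild type 2 (0.114). Both also missed it with limma without wild type 2, at 0.0859 for SQD1 and 0.131 for SQD2. NPC5 (AT3G03540) had no read in any library.

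Of the 4 purple acid phosphatase genes, 2 were lower in uba2c, 1 was higher and 1 did not pass, against 17.4% lower and 17.4% higher among all genes tested. PAP17 (AT3G17790), which is known to respond to phosphate starvation, fell to 1062 and 1036 in uba2c, against 1646 and 1729 in wild type (log2 fold change -0.69, SE 0.05, limma adjusted p = 2.53e-05). PAP26 (AT5G34850), the main intracellular acid phosphatase, went the other way, with 5226 and 5091 in uba2c, against 4142 and 4075 in wild type (0.33, SE 0.03, limma adjusted p = 0.000258). It was the most abundant of the 44 per exon length, at 104 ± 3.21 RPKM in uba2c and 83.2 ± 0.97 in wild type. The secreted phosphatase gene PAP10 (AT2G16430) had 647 and 676 in uba2c and 809 and 754 in wild type. It passed with limma (-0.24, adjusted p = 0.0152), but not with DESeq2 (adjusted p = 0.0716) or with edgeR without uba2c 1 (0.0793) or wild type 1 (0.0585), nor with limma without wild type 1 (0.0808). PAP12 (AT2G27190) did not pass with limma (-0.13, adjusted p = 0.0756) and did with edgeR (adjusted p = 0.0314).

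All 5 of the other recycling genes were lower, where 17.4% of all genes tested were, and the list was chosen with earlier results known. RNS1 (AT2G02990), a secreted ribonuclease, had 47.2 and 44.1 in uba2c, against 122 and 126 in wild type, 36.8% of the wild type mean (log2 fold change -1.43, SE 0.15, limma adjusted p = 0.000234). PEPC1 (AT1G17710), a phosphoethanolamine and phosphocholine phosphatase, fell to 344 and 320 in uba2c, against 665 and 699 in wild type (-1.04, SE 0.07, limma adjusted p = 2.13e-05). Its relative PS2 (AT1G73010), a pyrophosphatase, had 504 and 556 in uba2c, against 963 and 882 in wild type (-0.80, SE 0.07, limma adjusted p = 0.000101). PPCK1 (AT1G08650) and PPCK2 encode kinases of phosphoenolpyruvate carboxylase. PPCK1 had 642 and 588 in uba2c, against 788 and 882 in wild type (-0.44, limma adjusted p = 0.00246). PPCK2 (AT3G04530) had 100 and 113 in uba2c and 164 and 135 in wild type (-0.48, limma adjusted p = 0.0306), but did not pass with DESeq2 (adjusted p = 0.114), with limma with low values kept (0.0674) or without wild type 1 (0.173), or with edgeR without uba2c 1 (0.128) or wild type 1 (0.124).

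The largest difference in the set was in ALMT1 (AT1G08430, chr1:2658602-2661310, plus strand), a malate channel of the root tip that acts in the arrest of root growth under low phosphate. ALMT1 had 23.1 and 23.5 in uba2c, against 259 and 228 in wild type, so uba2c held 9.58% of the wild type mean (log2 fold change -3.35, SE 0.15, limma adjusted p = 3.71e-06). Of the root tip markers, WOX5 had 14.5 and 9.79 in uba2c and 13.6 and 11.6 in wild type (95% interval -0.89 to 0.74). PLT1 had 16.4 and 7.81 in uba2c, both below the 17.4 and 17.4 in wild type (-1.52 to 0.32). Neither passed, and values this low do not show that the levels were equal. The part of these markers in the ALMT1 result was not tested. LPR1 (AT1G23010) and LPR2 encode ferroxidases of the same root response. LPR1 overlapped between genotypes, with 73.1 and 78.5 in uba2c and 74.7 and 68.8 in wild type. LPR2 (AT1G71040) had 907 and 952 in uba2c and 734 and 858 in wild type (0.23, limma adjusted p = 0.0498), but did not pass with DESeq2 (adjusted p = 0.0844), with limma at a pseudocount of 0.1 (0.0603), with low values kept (0.118) or without wild type 1 (0.261), or with edgeR without uba2c 1 (0.0911), uba2c 2 (0.141) or wild type 1 (0.224).

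**Figure D3:**
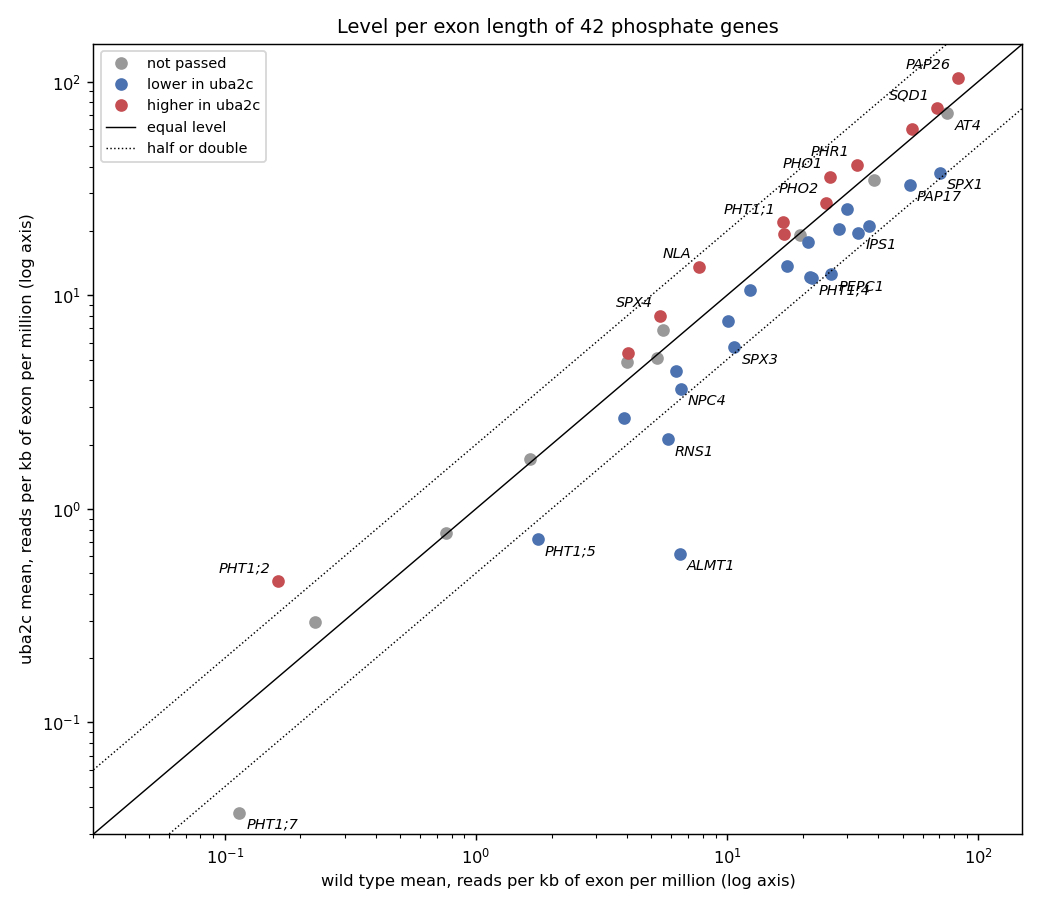
Mean level per exon length of the 42 phosphate genes tested, uba2c on the vertical and wild type on the horizontal axis, in RPKM on log axes, with a line for equal levels and dotted lines for a 2-fold difference. PAP26 is highest at 104 in uba2c and 83.2 in wild type, and ALMT1 lies farthest below the line at 0.617 in uba2c and 6.49 in wild type.

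A wider list, also chosen with earlier results of these data known, held 65 other genes of the pathway. Of 59 tested, 17 were lower (28.8%) and 10 higher (16.9%), 45.8% in all, against 17.4% lower, 17.4% higher and 34.8% in all among the 22439 genes. The share of higher genes was thus close to that of all genes, and the median log2 fold change was 0.00. The largest rise was in PAP25, a purple acid phosphatase gene, with 39.4 and 44.2 in uba2c, against 11.6 and 10.7 in wild type (log2 fold change 1.86, limma adjusted p = 0.00113). PHT5;3, a vacuolar transporter related to VPT1, was also higher, with 861 and 883 in uba2c, against 472 and 422 in wild type (0.96, limma adjusted p = 3.06e-05). Among genes that passed, the falls were led by G3Pp2 (-1.27), the zinc finger factor gene ZAT6 (-1.22) and the GARP-type repressor gene HHO1 (-1.07). PAP22 (-0.97), GDPD5 (-0.85) and PAP7 (-0.80) were lower as well, and of these 8 genes only PAP22 did not pass with DESeq2 (adjusted p = 0.0692). The lowest log2 fold change of the wider list, -2.91, belonged to a phosphatase or nuclease gene that did not pass with limma.

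The P1BS element, GNATATNC, reads the same on both strands and was searched in the 1000 bases before each annotated gene start. It occurred at least once in 26 of the 44 genes (59.1%), against 6552 of 32546 genes of the table (20.1%). The 44 were picked for known roles in a response that PHR factors drive through this element, so the contrast is no independent result. By direction, 11 of the 20 lower genes held it (55%), 7 of the 12 higher (58.3%) and 6 of the 10 that did not pass (60%). The median log2 fold change was -0.15 over the 24 tested genes with the element and -0.17 over the 18 without it. Promoters of the lower genes SPX3 and IPS1 and of the higher gene NLA are shown from the TAIR10.1 genome, picked after the matches were seen, with P1BS in capitals (SPX3 chr2:18606110-18606409 plus, IPS1 chr3:3050339-3050538 plus, NLA chr1:634844-635143 plus).
SPX3 promoter: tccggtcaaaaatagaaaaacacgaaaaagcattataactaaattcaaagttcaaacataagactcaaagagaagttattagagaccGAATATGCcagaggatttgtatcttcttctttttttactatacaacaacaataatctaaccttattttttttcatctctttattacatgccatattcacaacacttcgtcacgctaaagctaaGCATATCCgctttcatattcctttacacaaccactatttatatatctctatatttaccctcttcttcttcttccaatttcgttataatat
IPS1 promoter: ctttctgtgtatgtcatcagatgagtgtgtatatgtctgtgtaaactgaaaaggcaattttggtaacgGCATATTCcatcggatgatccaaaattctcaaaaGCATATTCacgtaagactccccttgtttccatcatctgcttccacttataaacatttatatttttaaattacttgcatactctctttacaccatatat
NLA promoter: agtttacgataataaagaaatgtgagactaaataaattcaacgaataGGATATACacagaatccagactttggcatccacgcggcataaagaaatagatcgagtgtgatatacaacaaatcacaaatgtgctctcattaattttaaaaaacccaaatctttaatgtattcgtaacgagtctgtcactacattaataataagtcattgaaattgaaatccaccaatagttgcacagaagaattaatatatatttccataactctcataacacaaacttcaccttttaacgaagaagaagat
A match describes these letters and is not evidence of binding. ALMT1, RNS1, PHT1;4 and G3Pp1 had no match in this window and were lower, and PHO1 and PHR1 had none and were higher.

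**Figure D4:**
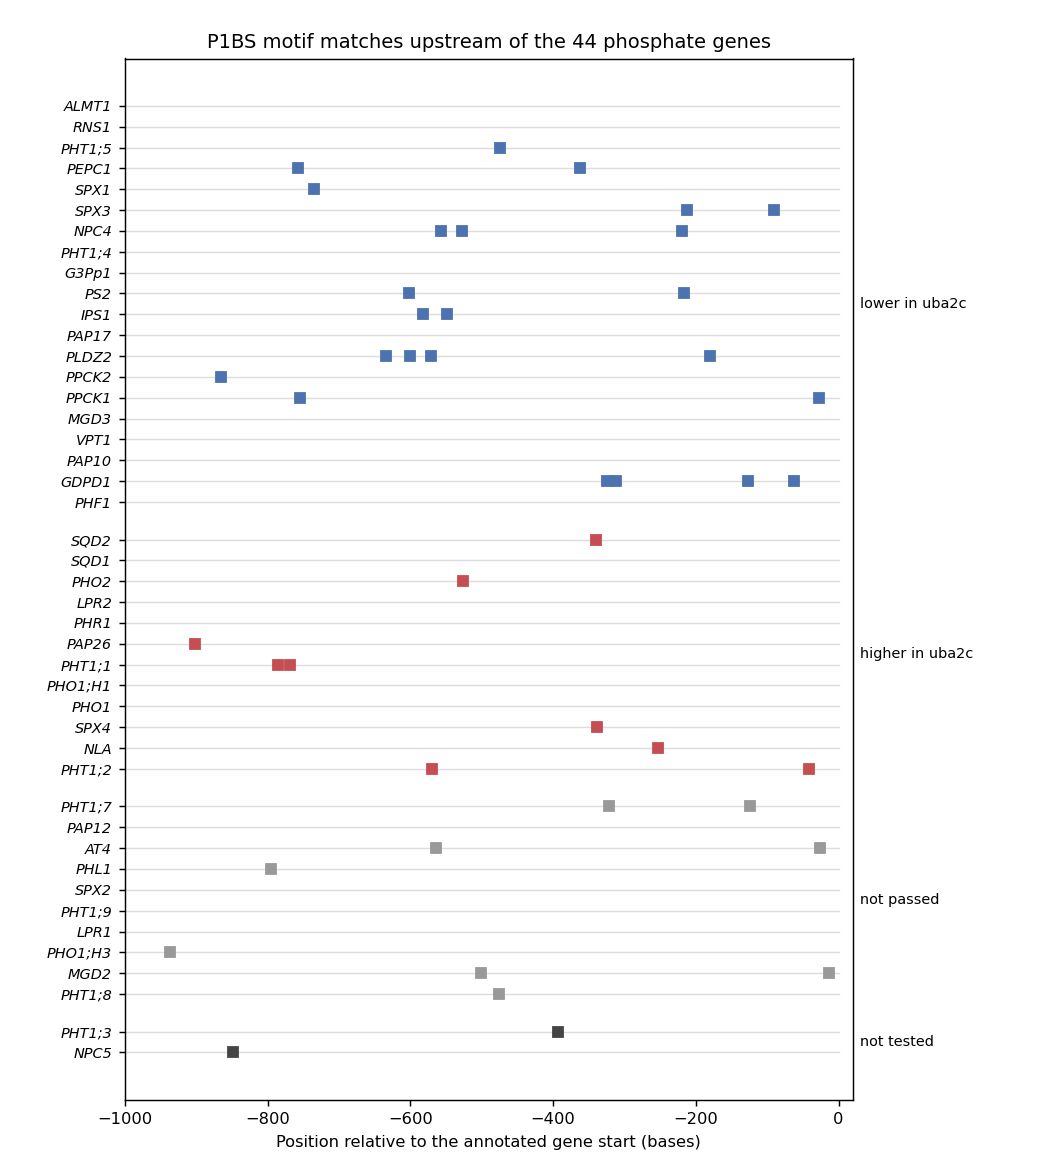
Positions of P1BS matches in the 1000 bases before the annotated start of each of the 44 phosphate genes, in bases relative to that start. GDPD1 and PLDZ2 hold 4 matches each, and 18 of the 44 genes hold none.

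Whether reads were counted by strand is not stated, and 8 of the 44 genes, PHR1, NLA, PLDZ2, GDPD1, PAP17, PAP10, PPCK1 and LPR1, overlap a gene on the opposite strand, so reads of both partners cannot be told apart.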

How the data were processed

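RNA-seq libraries (single-end, 50 bp) of 2 uba2c and 2 wild type samples were analysed. The submitters' processing notes list HISAT2, FastQC, featureCounts, SAMtools 1.9 and edgeR, and the TAIR10 build; they give no counting options. What the authors deposited is a signal for each gene, and how they made it is not stated. The values behave as read counts scaled to 1 library size: inverting the quantile adjustment of edgeR gave whole reads for 100% of values within a tolerance of 0.001. Recovered reads and levels per length rest on this inference. Replicates differed by more than sampling noise (chi-square over degrees of freedom 1.97 for uba2c and 1.49 for wild type). limma 3.58.1 (R 4.3.3) with a mean-variance trend was fitted to log2(value + 0.5) wherever 2 or more libraries reached a value of 1; folds of low genes are understated on this scale. p-values are two-sided and Benjamini-Hochberg adjusted at 0.05 over all genes tested. Alternatives used edgeR 4.0.16 and DESeq2 1.42.0 on recovered reads, other pseudocounts and filters, a replicate block and omission of each library. Scripts were tested on simulated data. The genes and lists were chosen with earlier results of these data known. The rule for named genes allowed every phosphate gene, up to 8 called genes of the wider list with the largest changes, and the MIR399 and MIR827 loci. All 32548 identifiers matched TAIR10.1, whose genome gave coordinates and sequences. Levels per length use recovered reads and exon length. Precision rests on 2 libraries per genotype.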

Additional observations from a re-analysis of the deposited data

How the results depend on the processing

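Over all genes, DESeq2 called 2454 higher and 2350 lower, against 3908 and 3901 with limma and 4544 and 4594 with edgeR. Leaving out 1 library, the counts ranged from 0 to 3595 genes higher and from 0 to 3692 lower, and from 0 to 11 phosphate genes higher and from 0 to 19 lower. The counts of 0 came from limma without uba2c 1 or without uba2c 2, where 7513 and 7412 genes had an unadjusted p under 0.05, and edgeR called 2951 higher and 2877 lower without uba2c 1, and 3269 and 3223 without uba2c 2; in these fits the lone library is assumed to vary like the other genotype, and the cause was not tested. Direction reversed under leave-one-out for 3 genes that did not pass: SPX2 (0.018 with limma and 0.019 with edgeR without uba2c 1, with a lowest value of -0.055), PHL1 (0.16 with both without uba2c 2, lowest -0.29) and PHT1;9 (-0.084 with limma and -0.083 with edgeR without uba2c 2, -0.048 and -0.045 without wild type 2, highest 0.14). The labels do not say whether same-numbered libraries were grown or prepared together. Deviations of same-numbered libraries had a correlation of 0.01 over genes, which cannot settle that question. With the replicate block limma called 12 higher and 20 lower phosphate genes (4039 and 3986 of all genes), and edgeR 14 and 21 (4694 and 4710). Without the filter on low values limma called 10 higher and 17 lower phosphate genes (3240 and 3172 of all genes). With a pseudocount of 0.1 it called 11 and 20 (3793 and 3753 of all genes). PHT1;2 had 5 to 19 reads per library and PHT1;7 had 1 to 5, and the effect of depth on their calls was not tested.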

Other observations

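Except for STOP1, which belongs to the wider pathway list, the genes below were looked up after the values of ALMT1 were seen. STOP1, the zinc finger factor that activates ALMT1, was higher in uba2c, with 1745 and 1689, against 1361 and 1429 in wild type (log2 fold change 0.30, limma adjusted p = 0.00161). MATE, a citrate transporter gene that is also under STOP1, was lower, with 114 and 109 in uba2c, against 194 and 171 in wild type (-0.71, limma adjusted p = 0.00234). WRKY46, a repressor of ALMT1, was lower too, with 50.1 and 45.1 in uba2c, against 153 and 104 in wild type (-1.40, limma adjusted p = 0.00132). GDH2 was slightly lower (-0.14, limma adjusted p = 0.0138, with 0.00154 to 0.0972 over all alternatives), and PGIP1 (-0.71, adjusted p = 0.0576) and GDH1 (-0.07, adjusted p = 0.343) did not pass with limma. These limma calls, too, are lost without either uba2c library.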
